A study of Rattus norvegicus with 12 samples.

Results

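The mRNAs of 7 subunits of the GABA-A receptor were followed in the striatum of 12 rats, namely *Gabra2*, *Gabra4*, *Gabra5*, *Gabrb1*, *Gabrb2*, *Gabrg1* and *Gabrd*. They were taken by gene symbol from a table of 17337 genes, and all 7 were found. All rats were WT adult male Sprague–Dawley rats that had self-administered methamphetamine (MA) for 16 days. By the study's methods, which do not describe the non-addicted rats, training began at an age of 8 weeks and an infusion held 0.05 mg/kg. The MA12 group (rats 21, 31, 4N and 7N) was killed after 12 h of abstinence and the MA24 group (rats 9N, 14N, 15N and 16N) after 24 h. The other 4 rats (9, 11, 12 and 13) carry the label non-addicted, with no hour of abstinence given, and how they were chosen is not described in the sources used here. No group without MA was analysed here, and each library came from the whole striatum of 1 rat.

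The GABA-A receptor is a chloride channel of 5 subunits that opens when GABA binds, and it carries most of the fast inhibition in the brain. Receptors usually join alpha and beta subunits, which form the GABA-binding site between them, with a gamma or a delta subunit. The gamma subunits take part in placing receptors at synapses, whereas receptors with the delta subunit lie mainly outside them and carry a lasting, tonic current. Most neurons of the striatum are GABAergic projection neurons, and they receive GABA from each other and from local interneurons.

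The subunit genes lie in clusters, and 4 of the 7 belong to one of them. In the gene order of the RefSeq annotation of GRCr8, *Gabrb1*, *Gabra4*, *Gabra2* and *Gabrg1* followed one another, with only *Cox7b2* between *Gabra4* and *Gabra2* among protein-coding genes. *Gabrb2* followed *Gabra6*, *Gabra5* followed *Gabrg3*, and *Gabrd* stood between *Prkcz* and *Cfap74*, away from other subunit genes. RefSeq promoter windows, from 250 bases before to 50 bases after the start of the gene, were given for 6 of the 7 genes, the exception being *Gabra2*. Those of 4 genes are shown 5′ to 3′ on the strand of the gene, to set both beta genes beside each other and beside *Gabra4* and *Gabrd*, whose mRNA differed less between MA24 and MA12 (build GRCr8). Capitals mark the core of the NRF1 motif (CGCATGCG) in *Gabrb1* and *Gabrb2* and the GC box (GGGCGG, or CCGCCC where it lies on the other strand) in *Gabra4* and *Gabrd*.
*Gabrb2*, chr10:27439543-27439842, plus strand: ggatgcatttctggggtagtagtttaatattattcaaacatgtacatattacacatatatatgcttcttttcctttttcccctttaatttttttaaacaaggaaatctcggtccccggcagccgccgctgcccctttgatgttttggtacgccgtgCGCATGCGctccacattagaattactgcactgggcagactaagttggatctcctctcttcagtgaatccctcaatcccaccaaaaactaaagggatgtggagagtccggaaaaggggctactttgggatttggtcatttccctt
*Gabrb1*, chr14:36902844-36903143, minus strand: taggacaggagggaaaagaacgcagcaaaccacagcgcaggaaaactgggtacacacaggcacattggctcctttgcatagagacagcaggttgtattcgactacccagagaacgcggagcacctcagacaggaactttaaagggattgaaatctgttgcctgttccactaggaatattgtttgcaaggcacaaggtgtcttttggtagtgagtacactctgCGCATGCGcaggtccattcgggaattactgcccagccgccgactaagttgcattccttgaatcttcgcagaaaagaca
*Gabra4*, chr14:36944497-36944796, plus strand: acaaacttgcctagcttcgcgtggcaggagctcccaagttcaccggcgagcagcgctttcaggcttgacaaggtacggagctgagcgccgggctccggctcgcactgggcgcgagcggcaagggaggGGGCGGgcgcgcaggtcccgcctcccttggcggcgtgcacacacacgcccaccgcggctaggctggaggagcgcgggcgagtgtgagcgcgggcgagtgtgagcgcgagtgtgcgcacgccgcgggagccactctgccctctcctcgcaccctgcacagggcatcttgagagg
*Gabrd*, chr5:171252660-171252959, minus strand: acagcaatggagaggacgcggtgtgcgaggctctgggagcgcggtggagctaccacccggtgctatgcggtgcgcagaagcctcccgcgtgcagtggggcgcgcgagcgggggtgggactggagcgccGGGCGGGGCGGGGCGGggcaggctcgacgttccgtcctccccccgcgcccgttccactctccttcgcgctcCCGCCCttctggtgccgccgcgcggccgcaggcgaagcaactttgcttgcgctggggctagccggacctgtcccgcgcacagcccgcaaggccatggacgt
The windows of *Gabrb1* and *Gabrb2* shared a run of 11 bases, tgcgcatgcgc, and further downstream a run of 10 bases, gaattactgc, and another of 10 bases, gactaagttg. Of 33469 promoter windows in the RefSeq table, 0.379% held the first run, 7 held the second and 3 held the third. A shared run of this length was not particular to the beta genes, since the windows of *Gabra4* and *Gabrd* also shared 11 bases, gagcgccgggc, and the longest run shared by any of the 15 pairs of members was 8 to 11 bases. The NRF1 core occurred on either strand in 1.66% of all windows and, of the 6 members with a window, only in both beta genes. This motif was added after the sequences were read. GC content fell into 2 levels, between 70.7% and 76.3% in *Gabra4*, *Gabrd* and *Gabra5* and between 44% and 49.3% in *Gabrb2*, *Gabrg1* and *Gabrb1*, around a median of 51.7% over all windows. The GC box was found in *Gabra4*, *Gabra5* and *Gabrd*, the last with 4 copies of which 3 lie 5 bases apart and overlap by 1 base, and in 33.1% of all windows. The E-box (CACGTG), the D-box (TTATGTAA), the CRE (TGACGTCA), the EGR site (GCGTGGGCG) and the TATA box (TATAAA) were searched on both strands and were not in these 6 windows, against 6.42%, 0.893%, 1.83%, 0.544% and 14.2% of all windows. A match of letters is not evidence of binding.

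Between 17908962 and 23850284 reads per rat were counted on genes. The 18 pairs of rats within a group differed beyond counting noise (chi-square divided by its degrees of freedom, 8.94 to 25.5), and each rat was 1 replicate. Striatal projection neuron markers were high in all groups, with a summed level over 10 genes of 14147 to 18104 CPM in MA12, 16862 to 18644 CPM in MA24 and 14210 to 17144 CPM in non-addicted rats. CPM here are counts scaled to the size of the library, after TMM scaling over the 12 libraries. They are not divided by transcript length, so levels are compared between rats and not between genes. In whole tissue, fewer cells of a type and less RNA per cell cannot be told apart.

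MA24 was first compared with MA12, to see which subunits changed between 12 and 24 h of abstinence. *Gabra2*, an alpha subunit abundant in striatal projection neurons, and *Gabrb2*, a beta subunit, were downregulated in MA24. The other alpha and beta subunits had lower mean levels in MA24 as well, without passing both thresholds, whereas *Gabrd*, the delta subunit of extrasynaptic receptors, had a log2 fold change (log2FC) just above 0. A gene was called when its adjusted p was below 0.05 over all 10754 genes tested and its FC was at least 1.5 (edgeR, quasi-likelihood test). Of the 7 subunits, 2 were called, both lower, where 1.72% of all genes tested were called lower. The 7 were chosen with earlier results of these data known, so this is not a neutral contrast. The log2FC was below 0 for 6 of the 7, with a median of -0.38 against -0.02 over all genes tested. The 4 MA24 rats lay below the 4 MA12 rats without overlap for 3 subunits, and the same was true of 8.35% of all genes.

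**Figure D1:**
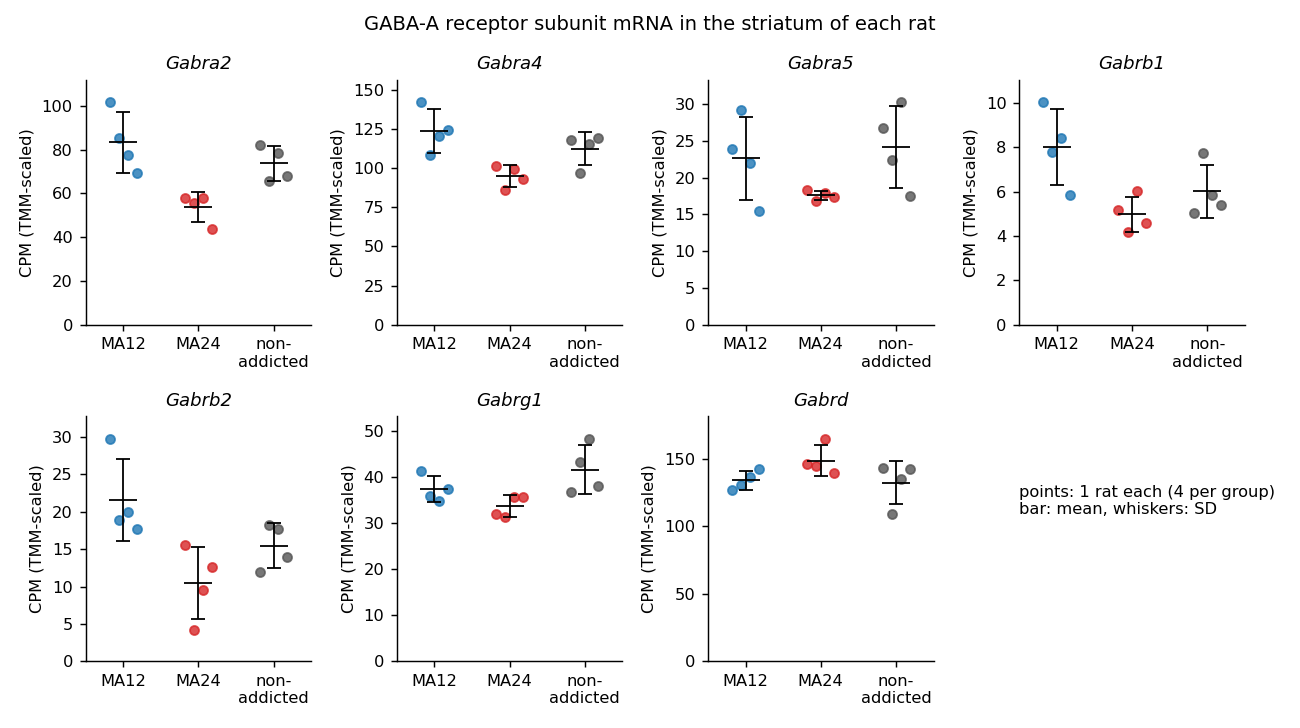
Expression levels of the 7 subunits in each rat, in CPM after TMM scaling on axes that start at 0, by group. Each point is 1 rat, the bar is the mean of 4 rats and the whiskers are the SD. For *Gabra2*, *Gabra4* and *Gabrb2* all 4 MA24 rats lie below all 4 MA12 rats, and for *Gabrd* the groups overlap.

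*Gabra2* was at 102, 85.1, 77.3 and 69.3 CPM in MA12 rats 21, 31, 4N and 7N. In MA24 it was at 57.9, 55.4, 57.8 and 43.6 CPM in rats 9N, 14N, 15N and 16N. All MA24 rats were below the lowest MA12 rat, and rat 16N was the lowest of the 12. The non-addicted rats 9, 11, 12 and 13, with 82.3, 65.8, 78.6 and 68.1 CPM, fell within the MA12 range or just under it. The log2FC of MA24 vs. MA12 was -0.63 (SE 0.123, 95% interval -0.89 to -0.38), an FC of 0.645, with an adjusted p of 0.00904 (edgeR, n = 4 per group).

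*Gabra4* encodes the alpha subunit that partners with delta in extrasynaptic receptors of the forebrain. It was at 142, 108, 121 and 125 CPM in MA12 and at 102, 86.1, 99.2 and 92.8 CPM in MA24, in the same order of rats. The groups did not overlap, and rat 21 was again the highest. Its log2FC of -0.38 (SE 0.104, 95% interval -0.60 to -0.17) had an adjusted p of 0.037 (edgeR) but was under the FC threshold, so it was not called. Non-addicted rats were at 118, 97.0, 116 and 119 CPM, with rat 11 apart from the other three.

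*Gabra5*, whose receptors lie largely outside synapses, varied widely within MA12 and within the non-addicted group. It ranged from 15.5 to 29.1 CPM in MA12, from 16.9 to 18.3 CPM in MA24 and from 17.4 to 30.3 CPM in non-addicted rats. The 4 MA24 rats were close together and inside the MA12 range, since MA12 rat 7N was the lowest of all 12. The log2FC was -0.36 (95% interval -0.68 to -0.05, adjusted p = 0.153 with edgeR).

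Among the beta subunits, *Gabrb2* showed the largest difference of the 7 subunits, with 29.8, 18.9, 19.9 and 17.7 CPM in MA12 and 15.5, 4.19, 9.61 and 12.6 CPM in MA24. MA24 rat 14N stood far below the others, with 85 counts against 187 to 361 in its group, and MA12 rat 21 stood above the others with 708 counts. The groups did not overlap. The log2FC was -1.04 (SE 0.258, 95% interval -1.58 to -0.50), an FC of 0.486, with an adjusted p of 0.026 (edgeR). Without rat 21 it was -0.84 (adjusted p = 0.0862, edgeR) and not called. Without rat 14N it was -0.78 (adjusted p = 0.026, edgeR) and called. Non-addicted rats lay between, at 11.9, 18.2, 17.7 and 14.0 CPM, and overlapped with both groups.

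*Gabrb1*, the other beta subunit of the list, was the least counted of the 7. It was at 10.05, 7.77, 8.41 and 5.87 CPM in MA12 and at 5.16, 4.19, 6.01 and 4.60 CPM in MA24, and the groups overlapped by MA12 rat 7N and MA24 rat 15N only. The log2FC was -0.69 (SE 0.208, 95% interval -1.12 to -0.25), larger in size than that of *Gabra2*, but the adjusted p was 0.059 in edgeR. DESeq2 called it, at -0.68 with an adjusted p of 0.025, and did not call *Gabrb2*, at -1.03 with an adjusted p of 0.0809.

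*Gabrg1*, a gamma subunit also found in glia, had 34.8 to 41.3 CPM in MA12 and 31.4 to 35.8 CPM in MA24, with a log2FC of -0.15 (95% interval -0.37 to 0.07, adjusted p = 0.384 with edgeR). *Gabrd* was at 127, 131, 136 and 143 CPM in MA12 and at 146, 144, 165 and 139 CPM in MA24. Only rat 16N of MA24 was inside the MA12 range. Its log2FC was 0.15 (95% interval -0.05 to 0.35, adjusted p = 0.348 with edgeR), so a change of either sign within this interval cannot be told from none.

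**Figure D2:**
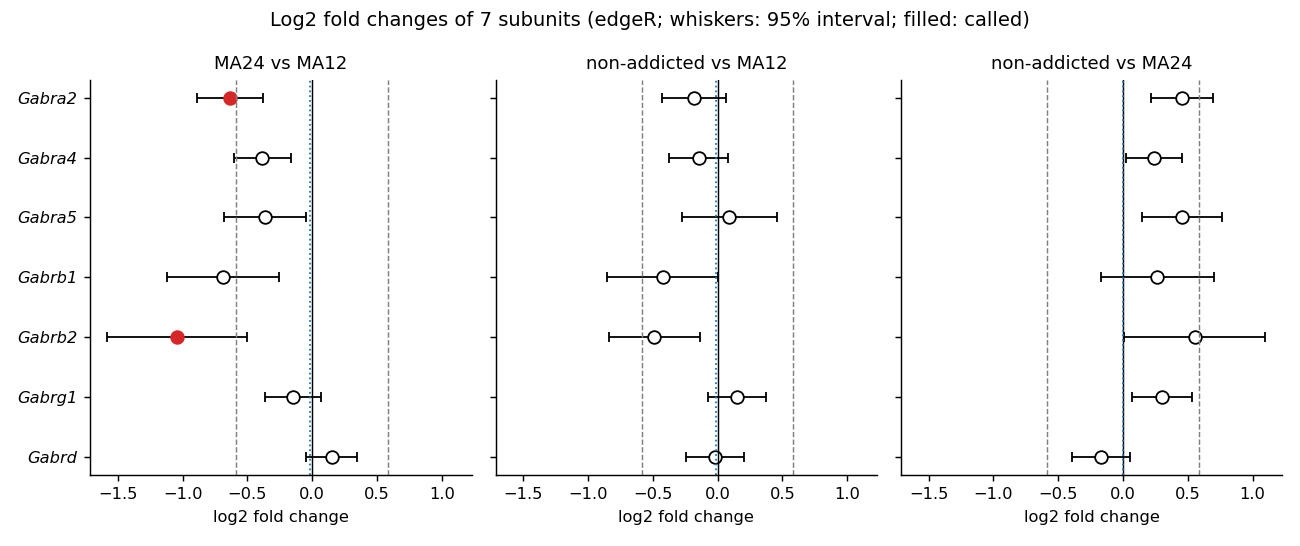
Log2 fold changes of the 7 subunits in the 3 comparisons of groups. Points are edgeR estimates from 4 rats per group, whiskers are 95% intervals, filled points are called, dashed lines mark an FC of 1.5 and the dotted line is the median of all genes tested. *Gabra2* and *Gabrb2* are called in MA24 vs. MA12, and no subunit is called in the other comparisons.

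The balance between the delta subunit and the others was read within each library, as the ratio of their counts, which does not depend on scaling between rats. There were 1.25 to 2.06 *Gabrd* counts per *Gabra2* count in MA12, 2.52 to 3.19 in MA24 and 1.66 to 2.09 in non-addicted rats. For *Gabra4*, the partner of delta, the ratio was 0.891 to 1.21 in MA12, 1.44 to 1.68 in MA24 and 1.12 to 1.21 in non-addicted rats. In both cases MA24 stood above the other groups without overlap, which was also so for 5.78% of all 10753 other genes set against *Gabrd*. This share was 9.18% among genes of 30 to 100 kb, the class of *Gabra4*. It was 10.6% among genes of 100 to 200 kb, the class of *Gabra2*. The ratio was also higher in MA24 than in MA12 without overlap for *Gabrb1* and *Gabrb2*, and it overlapped for *Gabra5* and *Gabrg1*. Of all other genes, 15.1% had such a higher ratio without overlap, and the share was larger among long genes, 21.5% between 30 and 100 kb, 27.0% between 100 and 200 kb and 37.8% over 200 kb, whereas *Gabrd* itself is short. These ratios were not tested.

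Single rats and the kind of rat number bore on the calls. All 4 MA24 rats and 2 of the 4 MA12 rats have numbers ending in N, whose meaning is not given in the sources used here. Among rats numbered with N, the log2FC was -0.44 for *Gabra2* (adjusted p = 0.113) and -0.83 for *Gabrb2* (adjusted p = 0.106), with 4 MA24 and 2 MA12 rats. With the kind of number as a covariate in edgeR, the values were -0.45 (adjusted p = 0.126) and -0.85 (adjusted p = 0.186), so neither was called. Without MA12 rat 21 neither was called, at -0.52 and -0.84. Without MA24 rat 16N *Gabra2* was at -0.55, under the FC threshold, and without MA24 rat 15N *Gabrb2* had an adjusted p of 0.0635. The part of these rats and of the kind of number was not tested.

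**Figure D3:**
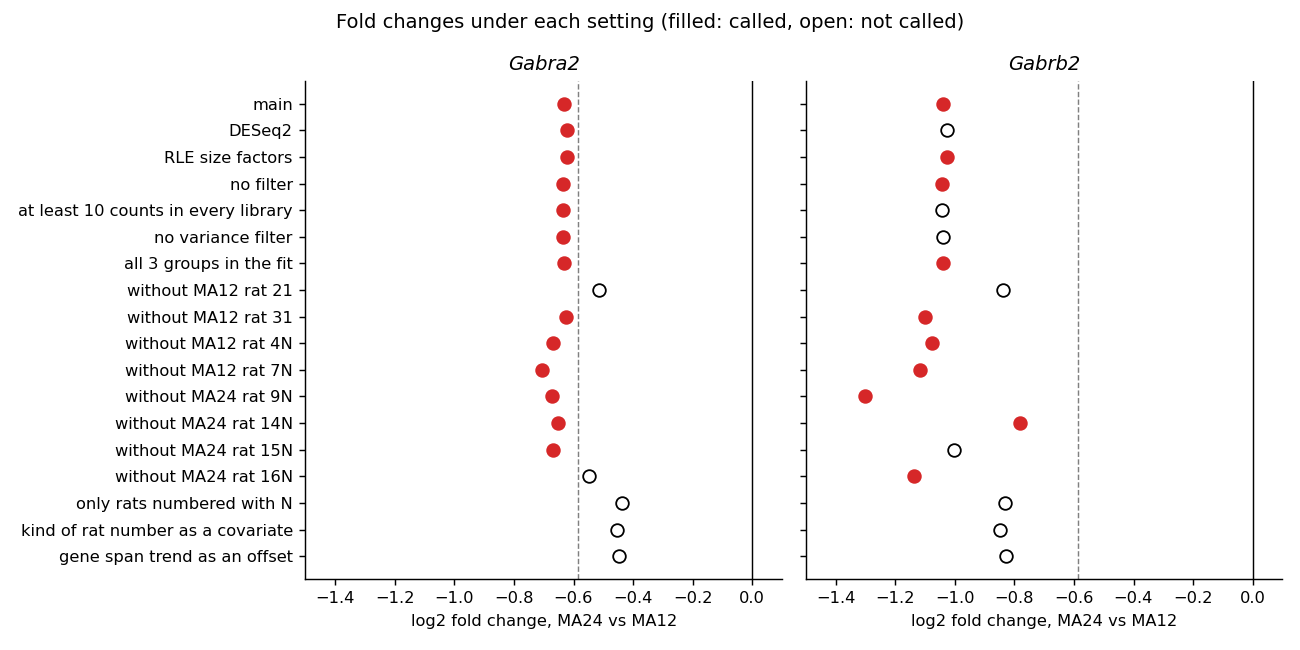
Log2 fold change of *Gabra2* and *Gabrb2* in MA24 vs. MA12 under each setting of the analysis, one per row. Filled points are called and open points are not, and the dashed line marks an FC of 1.5. The values run from -0.70 to -0.44 for *Gabra2* and from -1.30 to -0.78 for *Gabrb2*, so the sign is kept in all 17 alternatives while the call is not.

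The length of the gene moved with the result. The span of a gene from start to end in the RefSeq annotation of GRCr8 was 11.9 kb for *Gabrd* and ran from 71.4 kb (*Gabrg1*) to 484 kb (*Gabrb1*) for the other 6. Over all genes, the median log2FC of MA24 vs. MA12 went from 0.12 for genes under 10 kb to -0.19 between 100 and 200 kb and -0.27 over 200 kb. *Gabra2*, with 136 kb, belonged to a class in which 4.24% of genes were called in either direction, and *Gabrb2*, with 220 kb, to one in which 9.52% were. In single libraries, the 698 genes over 200 kb deviated from their mean over the 12 libraries by a median of 0.06 to 0.17 log2 units in MA12 and of -0.24 to -0.03 in MA24. The highest of these medians was that of rat 21, which had the highest level of the 12 for 4 of the 7 subunits. The lowest was that of rat 14N, which had the lowest level for 4 of the 7. With the trend on gene span removed from each library, an alternative chosen after the data were seen, *Gabra2* was at -0.45 (adjusted p = 0.05001) and *Gabrb2* at -0.83 (adjusted p = 0.0767) in edgeR, both below 0 and not called.

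**Figure D4:**
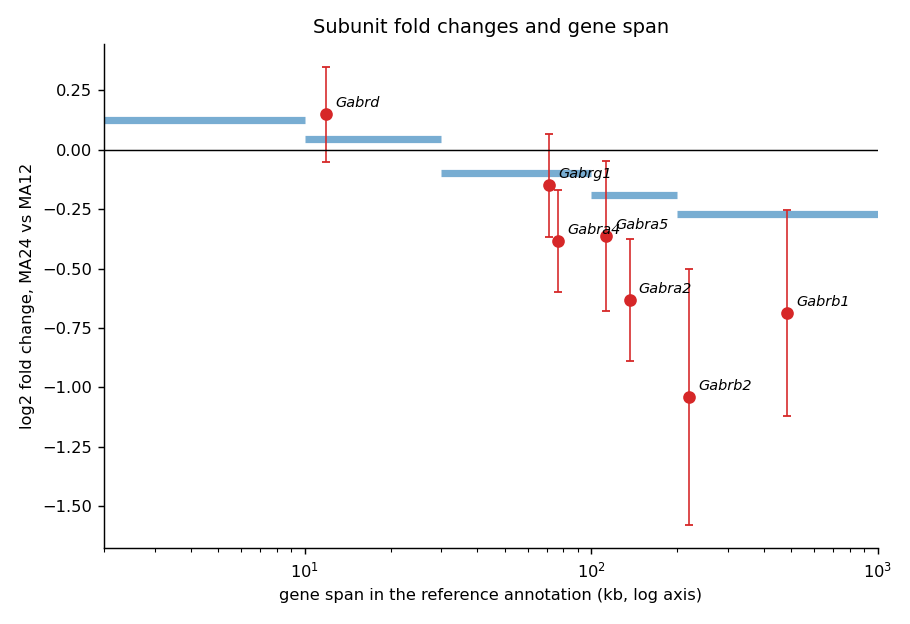
Log2 fold change in MA24 vs. MA12 against the span of the gene in kb, on a log axis. Red points are the 7 subunits, with 95% intervals, and blue bars are medians of all genes in 5 classes of span. *Gabrd*, the shortest of the genes shown, has the only point above 0, and the others lie below the medians of their classes.

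Other measures differed in the same comparison. The summed level of 4 thalamic neuron markers was 33.8 to 62.6 CPM in MA12 and 28.9 to 33.4 CPM in MA24. None of the 4 was at 0 in any library. Of the 3 that were tested, *Prkcd* was called lower, at -0.94 (adjusted p = 0.013, edgeR), though its groups overlapped. *Tcf7l2* at -0.21 and *Lef1* at -0.25 were not called, and their groups overlapped too. The summed levels of the other 9 marker lists overlapped between MA12 and MA24, oligodendrocyte markers included (11342 to 20543 CPM against 17109 to 19963 CPM). Within the overlapping sum of the striatal interneuron markers, *Nos1* was called lower, at -0.76 (adjusted p = 0.043, edgeR), though its groups overlapped. The other markers of this list were not called and went both ways. *Sst* was at 0.20 and *Chat* at 0.13, *Pvalb* at -0.08 and *Npy* at -0.31. *Lhx6*, removed by the variance filter, was at -0.04 in the fit without it. Clock genes, named after their values were seen, also differed, with *Dbp* at 0.66 (adjusted p = 0.00558) and *Arntl* at -0.61 (adjusted p = 0.00605, edgeR). Between rats killed 12 h apart, hours of abstinence and time of day cannot be told apart if all sessions were held at one time of day. The part of thalamic tissue, of interneurons and of time of day in the subunit levels was not tested.

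Some further subunits of the receptor were examined in the same comparison. *Gabrg3*, a minor gamma subunit and the neighbour of *Gabra5*, was downregulated in MA24, from 8.07, 7.23, 4.28 and 5.48 CPM in MA12 to 1.55, 2.96, 3.44 and 4.22 CPM. All MA24 rats were below all MA12 rats, the closest being MA24 rat 16N and MA12 rat 4N. The log2FC was -1.05 (SE 0.285, adjusted p = 0.039, edgeR). Its span was 623 kb, longer than that of any of the 7. *Gabra3* (-0.28), *Gabre* (-1.54) and *Gabrp* (-0.25) were not called.

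A list of 25 genes that anchor GABA-A receptors, move them or set the chloride gradient was examined beside the subunits. Of the 17 that were tested in MA24 vs. MA12, none was called (10 with an unadjusted p below 0.05, smallest adjusted p 0.0503 in edgeR), 16 had a log2FC below 0 and the median was -0.24. Over all 10754 genes tested, 2538 had an unadjusted p below 0.05 (edgeR) and 51.7% a log2FC below 0. A further 7 were removed by the variance filter, which takes out genes that differ little, and 1 by the count filter. In the fit without the variance filter, *Gabarapl1* was at 0.13, *Gabarap* and *Gabarapl2* at 0.08 and *Clptm1* at 0.05. *Slc12a5* and *Trak1* were at 0.01 and *Zdhhc3* at -0.02. The 16 of 17 thus does not describe the whole list.

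Non-addicted rats were next compared with MA12. No subunit of the 7 was called by edgeR or by DESeq2, where edgeR called 0.251% of all 10758 genes tested. An unadjusted p below 0.05 (edgeR) was found for 1 subunit and for 1327 of the 10758 genes. No subunit separated the groups, against 7.11% of all genes. *Gabrb2* had the largest difference, a log2FC of -0.49 (95% interval -0.84 to -0.14, adjusted p = 0.228), followed by *Gabrb1* at -0.42 (95% interval -0.85 to 0.00, adjusted p = 0.409). The 3 alpha subunits were at -0.18 (*Gabra2*), -0.15 (*Gabra4*) and 0.09 (*Gabra5*), *Gabrg1* was at 0.15 and *Gabrd* at -0.02. None of the 25 genes for anchoring, trafficking and the chloride gradient (17 tested, 5 at an unadjusted p below 0.05) was called by edgeR. The endothelial marker *Kdr* was called lower in non-addicted rats, at -1.08 (adjusted p = 0.013, edgeR) without overlap. The summed level of the endothelial markers overlapped. *Arntl*, at -0.60 (adjusted p = 0.013), was lower than in MA12 in these rats too.

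Non-addicted rats were then compared with MA24, which shares its MA24 libraries with the first comparison, so the values of both are not independent. All MA24 rat numbers and no non-addicted ones end in N, so group and kind of number cannot be told apart here. No subunit was called by edgeR or by DESeq2, where edgeR called 0.456% of all 10744 genes tested. An unadjusted p below 0.05 (edgeR) was found for 5 subunits and for 1879 of the 10744 genes. All 4 non-addicted rats were above all 4 MA24 rats for *Gabra2* and *Gabrg1*, and 5.10% of all genes were separated in this direction. The log2FC was 0.45 for *Gabra2* (95% interval 0.21 to 0.69, adjusted p = 0.0771) and 0.30 for *Gabrg1* (95% interval 0.07 to 0.53, adjusted p = 0.189), which had 36.7, 43.2, 48.3 and 38.1 CPM in the non-addicted rats. *Gabrb2* was at 0.55, *Gabra5* at 0.45, *Gabrb1* at 0.27, *Gabra4* at 0.24 and *Gabrd* at -0.17. The median was 0.30, against 0.00 over all genes. Gene span moved with the log2FC in this comparison too. The median over all genes was -0.12 under 10 kb and 0.08 between 30 and 100 kb. It was 0.11 between 100 and 200 kb and 0.17 over 200 kb.

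In this comparison 1 of 18 tested genes of the anchoring, trafficking and chloride list was called. *Hap1*, which encodes a protein that links GABA-A receptors to kinesin for return to the synapse and which is abundant in the hypothalamus, was higher in non-addicted rats, at 1.08 (95% interval 0.71 to 1.45, adjusted p = 0.024, edgeR). Summed ependymal and choroid plexus markers were higher in non-addicted than in MA24 rats (24.7 to 61.0 CPM against 17.3 to 23.1 CPM), *Ttr* being at 0 in 6 of the 12 libraries. Oligodendrocyte (10955 to 16342 CPM against 17109 to 19963 CPM) and endothelial markers (4 of 5 in the table, 267 to 379 CPM against 431 to 481 CPM) were lower in non-addicted rats, none of their measured markers being at 0. The endothelial markers *Cldn5*, at -0.68 (adjusted p = 0.024, edgeR), and *Kdr*, at -0.85 (adjusted p = 0.035, edgeR), were called. The ependymal marker *Foxj1* was called at 1.08 (adjusted p = 0.035, edgeR). Summed hypothalamic markers overlapped, with *Pmch* and *Sim1* at 0 in all libraries and a highest sum of 16.4 CPM. The 4 hypothalamic markers that were tested were not called and went both ways. *Avp* was at 3.05, *Oxt* at 1.46 and *Hcrt* at 0.61, each with overlapping groups. *Pomc* was at -0.54, without overlap. The part of these cells in the subunit levels and in *Hap1* was not tested.

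Over the 3 groups, the mean level followed the order MA12, non-addicted, MA24 for *Gabra2*, *Gabra4*, *Gabrb1* and *Gabrb2*, and non-addicted, MA12, MA24 for *Gabra5* and *Gabrg1*. For *Gabrd* the order was MA24, MA12, non-addicted. Neighbours in these orders overlapped, with 1 exception, *Gabra2* in non-addicted and MA24 rats. MA24 was thus last for 6 subunits and first for the delta subunit, but each step between neighbours was mostly within the spread between rats.

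The genes whose log2 CPM ran most alike with each subunit over the 12 libraries were taken from 10764 genes, as a description. For *Gabrb2* these included *Glyr1* (Pearson's r = 0.978) and *Slc9a7* (0.969). For *Gabra2* they were *Thoc2* (0.965), *Xk* (0.961) and *RGD1310352* (0.948), for *Gabra4* *Yipf6* (0.930), *Bzw1* (0.926) and *Tsn* (0.919), and for *Gabra5* *Kcnd3* (0.944), *Ubxn10* (0.882) and *Sec24b* (0.879). *Gabrb1* ran with *Grk5* (0.931), *Tmed10* (0.917) and *Nfib* (0.910), *Gabrg1* with *Zfp207* (0.905), *Wdr19* (0.903) and *Prrc2c* (0.893), and *Gabrd* with *Cited4* (0.882), *Galnt18* (0.875) and *Ccdc58* (0.855). No subunit was among the 3 nearest genes of another. The libraries share their group and depth and the trend on gene span, all of which enter these values.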

How the data were processed

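Poly-A RNA of the striatum was prepared with TRIzol and a TruSeq v2 kit, which does not keep the strand, so an antisense transcript and its gene cannot be told apart. The submitters' processing notes name Cutadapt 1.18 for trimming, STAR 2.7.0e, the rn6 build and HTSeq 0.12.4, and the authors obtained counts per gene with featureCounts. The deposited values are raw counts of 17337 genes in 12 libraries, with 17908962 to 23850284 counts each. How reads at several positions were counted is not given in the sources used here. All samples carry a single batch label, and groups and rat numbers were read from the sample titles.

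Counts were analysed with edgeR 4.0.16 and limma 3.58.1 in R 4.3.3. In every comparison a gene needed a mean count over 4 in its 8 libraries, after which the least variable 15% (variance of log2 CPM) were left out. Libraries were scaled by TMM and compared by the quasi-likelihood test (glmQLFit, glmQLFTest), with only both groups in the fit and Benjamini-Hochberg adjustment over all genes tested. The SE was the size of the log2FC divided by the square root of F. Levels are CPM after TMM scaling over the 12 libraries, and log2 CPM used a prior count of 2. The rats of a group are separate animals. Alternatives were DESeq2 1.42.0, RLE factors, other filters, a fit on all 3 groups, leaving out each rat, rats of one kind of number, that kind as a covariate, and an offset for gene span. The span offset was added after the data were seen, with spans for 92.8% of the genes tested in MA24 vs. MA12. Both fits were tested on simulated data. Promoter sequences and gene order came from RefSeq (GRCr8), and its coordinates were not joined to the counts, which were made on rn6. The members and all gene lists were chosen with earlier results of these data known. All 7 members and other subunit genes were named, of the pathway lists those called in any comparison, and for each member the 3 genes of a mean count of at least 50 with the highest r, except that some results under this rule are not reported here. Numpy 2.4.6, pandas 2.3.3 and matplotlib 3.10.9 were used in Python 3.11.15.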

Additional observations from a re-analysis of the deposited data

Results flagged for a closer look

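In 2 of the 21 sets of 4 rats (7 subunits in 3 groups), 1 rat stood apart from the other three by Dixon's criterion, where chance alone gives about 1 in 20. In MA24, rat 16N was low for *Gabra2*, at 43.6 CPM against 55.4 to 57.9 CPM in the others, with a gap of 0.844 of the range. Without this rat the log2FC of MA24 vs. MA12 was -0.55 (edgeR, adjusted p = 0.028). In the non-addicted group, rat 11 was low for *Gabra4*, at 97.0 CPM against 116 to 119 CPM in the others, with a gap of 0.85 of the range on the log2 scale.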

How the results depend on the processing

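The direction of all 7 subunits in MA24 vs. MA12 was kept in every alternative that tested them, whereas the number called was not. It was 1 (*Gabra2*) with at least 10 counts in every library or without the variance filter, and 0 with only N-numbered rats, with the kind of number as a covariate or with the span offset, and it ran from 0 to 3 when 1 rat was left out. *Gabrb1* was added without MA12 rat 7N, and 2 of the 7 were no longer tested without MA12 rat 21. Over all genes, 264 were called, 116 with only N-numbered rats, 47 with the covariate, 129 with the span offset and 129 to 436 with 1 rat left out, the lowest without MA24 rat 14N and the highest without MA24 rat 9N. No subunit was called in non-addicted vs. MA12 or vs. MA24 under any alternative. Over all genes, the 27 calls of non-addicted vs. MA12 became 75 with DESeq2, 12 without filters, 4 with at least 10 counts, 5 without the variance filter, 63 without N-numbered rats, 10 with the covariate and 8 to 93 with 1 rat left out. The 49 calls vs. MA24 became 126 with DESeq2, 10 without filters, 0 with at least 10 counts, without the variance filter or with all 3 groups in the fit, and 0 to 187 with 1 rat left out. The sign turned only in non-addicted vs. MA12, for *Gabra5* (-0.037 to 0.23 with 1 rat left out, below 0 without non-addicted rat 12 or MA12 rat 7N, -0.12 without N-numbered rats, -0.13 with the covariate) and *Gabrd* (-0.054 to 0.031 with 1 rat left out, above 0 without MA12 rat 7N, 0.055 without N-numbered rats, 0.042 with the covariate). The cause was not tested. No paired analysis was possible because the groups share no rat numbers.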

Other observations

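Some other subunits had low counts, at most 72 in any rat. *Gabra6*, the alpha subunit of cerebellar granule cells, had 0 counts in all MA12 and MA24 rats and at most 4 in a non-addicted rat. *Gabre*, the epsilon subunit, differed widely between rats of one group, with 33, 24, 1 and 3 counts in MA12, 13, 0, 2 and 4 in MA24 and 13, 72, 33 and 1 in non-addicted rats. *Gabrq*, the theta subunit, had 17, 8, 0 and 0 counts in MA12 and was highest among the non-addicted rats in rat 11 too, with 13. *Gabrp*, the pi subunit, had between 8 and 33 counts in the 12 rats. The rho subunits *Gabrr1*, *Gabrr2* and *Gabrr3* had at most 12, 11 and 7 counts. None of these genes was called in a comparison in which it was tested (edgeR). The largest difference was that of *Gabre* between non-addicted and MA24 rats, a log2FC of 2.61 (95% interval 0.79 to 4.42, unadjusted p = 0.00734, adjusted p = 0.148 in edgeR), with overlapping groups.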
